A study of Mus musculus with 28 samples.

Results

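Secreted modulators of Wnt signaling were followed in the remodeling mouse arteriovenous fistula (AVF) by 10 genes, *Sfrp1*, *Sfrp2*, *Sfrp4*, *Frzb*, *Wif1*, *Dkk2*, *Dkk3*, *Wnt5a*, *Rspo3*, and *Wisp1*, the last listed in the single-cell files as *Ccn4*. They were chosen by symbol, with earlier results of these data known. They are 10 of the 56980 genes in the bulk table and 10 of the 32285 genes in the single-cell matrices. All mice were C57BL/6, of both sexes, and all had undergone a subtotal nephrectomy before the end of the jugular vein was joined to the side of the carotid artery. Their age was not given in the sources used here. Bulk RNA sequencing covered the outflow vein of 8 early AVFs (labelled day 3), 5 mid AVFs (day 10), and 5 late AVFs (day 21), with 7 contralateral jugular veins, which had no anastomosis, as controls. Single-cell RNA sequencing covered 3 libraries, each a pool of 10 vessels, for contralateral, early, and late, so that no condition had a replicate there. The study gives later mean harvest days for early and late vessels in single cells than in bulk, so these names do not mark the same days.

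Wnt proteins are secreted glycoproteins that bind Frizzled receptors, and in the canonical branch the coreceptors Lrp5 and Lrp6, which keeps β-catenin from being degraded. Secreted frizzled-related proteins (*Sfrp1*, *Sfrp2*, *Sfrp4*, and *Frzb*) and Wnt inhibitory factor 1 (*Wif1*) bind Wnt proteins outside the cell, Dickkopf proteins bind the Lrp coreceptors, and R-spondins raise the signal by keeping Frizzled receptors at the cell surface. In vessels and connective tissue these genes are mostly products of mesenchymal cells, fibroblasts and smooth muscle cells (SMCs) among them.

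The bulk libraries held 20254173 to 67457501 counts. In 8 of the 25 libraries, *Xist* and Y chromosome genes went against the labelled sex: 0 of 7 contralateral veins, 2 of 8 early, 2 of 5 mid, and 4 of 5 late AVFs. At each time point as many of these libraries went one way as the other, and whether their other labels hold was not tested, so calls that were lost without them are named. Leaving them out keeps 7 contralateral veins, 6 early, 3 mid, and 1 late AVF, so that late values then rest on 1 vessel, assumed to vary like the other groups. Levels are in CPM, counts scaled to library size with edgeR's TMM method, and a gene was called where edgeR's quasi-likelihood test over 12673 genes gave an adjusted *p* (Benjamini–Hochberg) under 0.01 with a log2 fold change at or beyond 1 in size. All 10 genes were tested. In tissue RNA, fewer cells of a type and less RNA per cell cannot be told apart.

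The tissues were checked by markers of cell types. The summed level of 6 smooth muscle genes lay between 9569 and 20930 CPM in contralateral veins, and between 999 and 3525 CPM in AVFs of all times, and 5 of the 6 were lower at each time point. Of 6 endothelial genes, 5, 6, and 5 were lower in early, mid, and late AVFs. The sum of 7 fibroblast genes lay between 20990 and 52500 CPM in contralateral veins, 3862 and 37420 CPM in early AVFs, 36050 and 56940 CPM in mid AVFs, and 33260 and 71620 CPM in late AVFs. The 5 cartilage genes summed to at most 1.96 CPM in contralateral veins and 67.8 CPM in AVFs, 6 skeletal muscle genes to at most 30.7 and 7944 CPM, and 5 thyroid and parathyroid genes to at most 28.0 and 13990 CPM, and the part of such tissue in the levels below was not tested.

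Of the 10 genes, *Frzb* and *Wif1* stood apart: they were nearly silent in contralateral veins and present in every AVF. *Sfrp2* fell in early AVFs and had returned to the range of contralateral veins by the late time point, with no call there. The other 7 were not called against contralateral veins at any time. Among all genes tested, 6.17% were called higher and 6.45% lower in early AVFs, 2.74% and 3.31% in mid AVFs, and 2.49% and 2.85% in late AVFs. Against that, 2 of the 10 were called higher at each time point, and 1, 0, and 0 were called lower, where at the unadjusted level of 0.05 the falls numbered 2, 0, and 0 and DESeq2 called 1, 0, and 0. Because the 10 genes were chosen with earlier results of these data known, such counts cannot show an excess over all genes. Shares of all genes, here and below, are given for scale only. The median log2 fold change of the 10 was −0.11, 0.98, and 0.97 in early, mid, and late AVFs, beside −0.01, −0.10, and −0.09 over all genes.

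**Figure D1:**
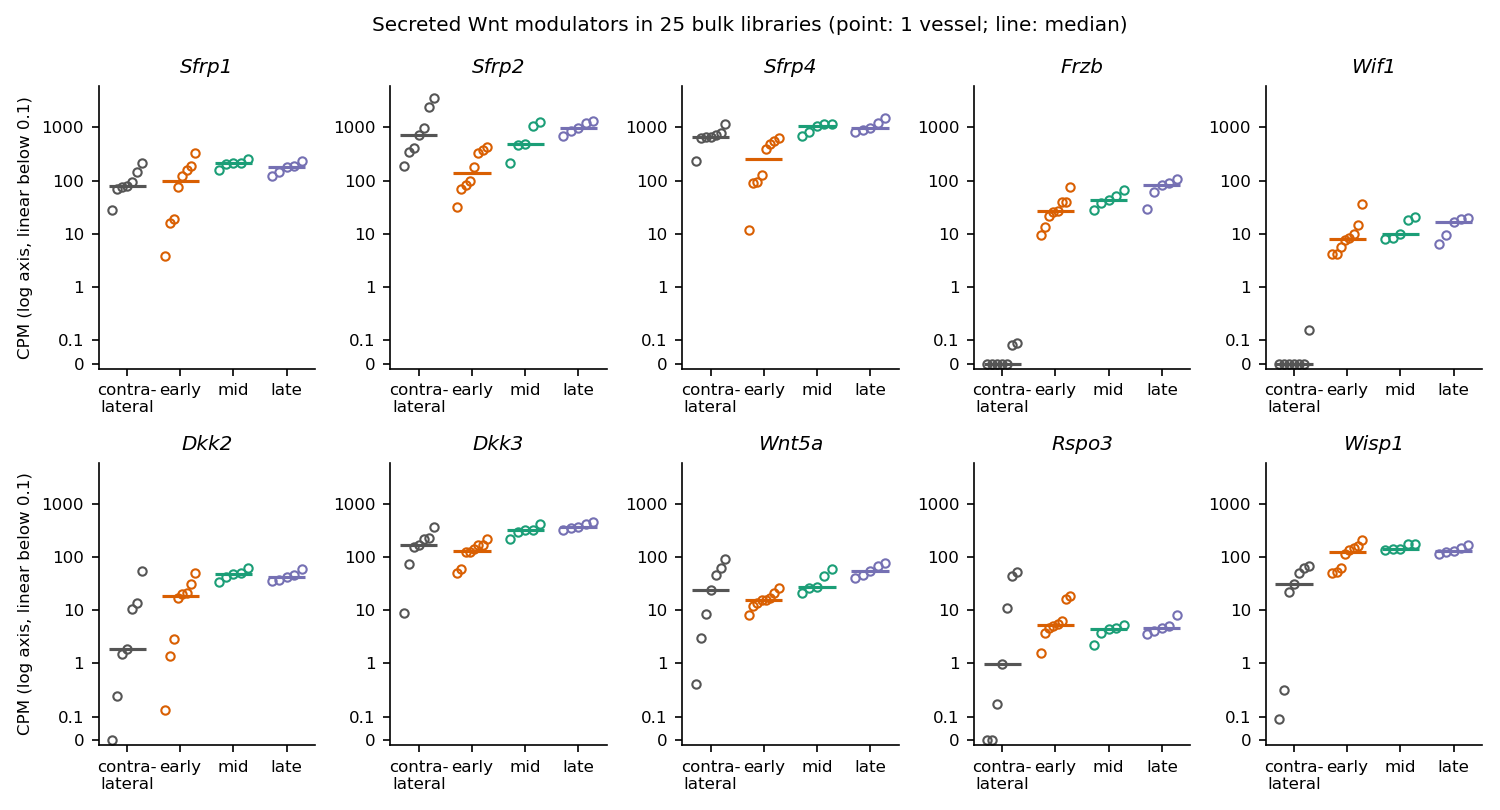
Level of each gene in the 25 bulk libraries, in CPM on an axis that is logarithmic above 0.1 and linear below it. A circle is 1 vessel and a line the median of its group. *Frzb* and *Wif1* are at 0 in most contralateral veins and separate in all AVFs, while most other genes overlap between groups.

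*Frzb* encodes secreted frizzled-related protein 3, first known from cartilage, and lies on chromosome 2 at 80411970 to 80447625 (GRCm38, minus strand). Among the 7 contralateral veins it had 2 counts in each of 2 libraries and 0 in the other 5, at most 0.087 CPM. In early AVFs it ranged from 9.52 CPM through a median of 26.7 to 76.2 CPM. Mid AVFs gave 37.2, 42.2, 65.7, 28.5, and 51.1 CPM, and late AVFs 62.2, 81.7, 28.9, 88.3, and 107.8 CPM. Every AVF at every time was thus above every contralateral vein. The pooled ratio to contralateral veins, which there rest on 4 counts, was 1350 in early AVFs (95% interval for counting error only, 527 to 4950), 1950 in mid AVFs (762 to 7160), and 3180 in late AVFs (1240 to 11700). The fitted log2 fold change, whose size at such low counts depends on the prior count, was 10.16, 10.67, and 11.38 (SE 0.78, 0.80, and 0.82), with edgeR adjusted *p* of 7.21e-10, 2.65e-09, and 1.86e-09. Without either contralateral vein with counts (library 27 or 31) the early change was 10.79 or 10.84, and the calls stood. Late AVFs were 2.33-fold above early AVFs, with overlapping groups and an edgeR adjusted *p* of 0.206.

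*Wif1* lies on chromosome 10 at 121033960 to 121100650 (plus strand) and had a like pattern at a lower level. One contralateral vein held 4 counts, 0.157 CPM, and the other 6 held 0. Early AVFs ranged from 4.21 CPM through a median of 8.08 to 35.6 CPM. Mid AVFs gave 18.5, 9.80, 20.6, 8.04, and 8.39 CPM, and late AVFs 16.9, 19.6, 9.31, 6.56, and 18.7 CPM. No AVF overlapped a contralateral vein, and the AVFs of the 3 times overlapped each other. Without the contralateral vein with 4 counts (library 27) the fitted log2 fold changes were 11.45, 11.65, and 11.77, and none of their calls changed. The pooled ratio was 584 (228 to 2150), 555 (216 to 2040), and 607 (237 to 2230) in early, mid, and late AVFs. The fitted log2 fold changes were 8.70, 8.91, and 9.03 (SE 1.03, 1.05, and 1.06), with edgeR adjusted *p* of 5.96e-07, 1.73e-06, and 2.02e-06. With a sex term and without the 8 libraries that went against their sex label, the late change, then resting on 1 late AVF, was 9.16 with an edgeR adjusted *p* of 0.0117.

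The sequence before the start of *Frzb*, *Wif1*, and *Sfrp2*, the 3 genes called, is shown from RefSeq (GRCm38.p6), which held promoters for 4 of the 10 genes, *Dkk2* being the fourth. Capitals mark matches on either strand to 3 short motifs, which do not overlap in these windows. The first is CTTTGA, the core bound by TCF/LEF factors, the nuclear partners of β-catenin. The second is the TATA box, read here as TATAAA. The last is the GC box that Sp factors bind, GGGCGG. The *Wif1* window is chr10:121033754-121033959 and the *Sfrp2* window chr3:83766071-83766320, both on the plus strand. For *Frzb*, the annotated starts of RefSeq and GENCODE lie 229 bases apart, so only the 30 bases around its TCF/LEF match are shown. These are chr2:80447474-80447503 on the minus strand, in which the match begins 95 bases before the RefSeq start. By GENCODE, whose start is at 80447625, this stretch lies after the start, within the annotated gene.
Frzb: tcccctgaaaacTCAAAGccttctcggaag
Wif1: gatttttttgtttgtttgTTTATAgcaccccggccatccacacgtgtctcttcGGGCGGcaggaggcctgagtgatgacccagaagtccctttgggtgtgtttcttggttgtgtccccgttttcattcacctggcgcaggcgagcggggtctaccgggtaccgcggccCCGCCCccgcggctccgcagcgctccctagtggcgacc
Sfrp2: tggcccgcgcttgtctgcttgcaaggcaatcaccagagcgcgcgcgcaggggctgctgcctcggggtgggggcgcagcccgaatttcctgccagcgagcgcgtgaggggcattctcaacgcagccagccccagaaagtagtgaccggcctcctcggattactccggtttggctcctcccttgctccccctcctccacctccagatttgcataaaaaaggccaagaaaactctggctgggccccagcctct

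In the 250 bases before the RefSeq start, *Frzb* held the TCF/LEF core and a GC box, *Wif1* and *Dkk2* a TATA box and GC boxes, and *Sfrp2* none of the 3. Over all 32851 promoters of that length, 13.8% held the TCF/LEF core, 12.4% the TATA box, and 32.7% the GC box. The CArG box, which serum response factor binds in contractile genes, was in none of the 4 and in 1.47% of all promoters. These are matches of letters, and they do not mark sites in use.

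*Sfrp2*, on chromosome 3 at 83766321 to 83774316 (plus strand), was the most abundant of the 10 per kilobase of exon, at 569 CPM per kilobase in contralateral veins and 92 CPM per kilobase in early AVFs. Contralateral veins ranged from 184 CPM through a median of 708 to 3527 CPM, and the highest values, 3527 and 2416 CPM, were those of the 2 libraries labelled male. Early AVFs ranged from 32.5 CPM through a median of 139 to 423.5 CPM, and all 8 lay below the contralateral median and 5 below the whole contralateral range. The fitted level was 6.18-fold lower in early AVFs (log2 fold change −2.63, SE 0.58, edgeR adjusted *p* = 0.00156). Without the 8 libraries that went against their sex label it was −2.80 with an edgeR adjusted *p* of 0.0167, and in the libraries labelled female −1.51 with one of 0.323, where 1 of the 3 early libraries goes against that label, so the call did not hold in either, while with a sex term and without those 8 libraries it did (−3.39, 0.000889).

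Mid AVFs gave 477.7, 466.1, 1041, 1281, and 214 CPM of *Sfrp2*, and late AVFs 839, 1217, 1333, 700, and 961 CPM. Late AVFs were all above early AVFs and within the contralateral range, with log2 fold changes of −0.81 (SE 0.64) in mid and −0.27 (SE 0.63) in late AVFs against contralateral veins (edgeR adjusted *p* = 0.469 and 0.837). Several marker sums also changed in early AVFs, some up and some down. The 7 mono/macro genes summed to 1727 to 7139 CPM in contralateral veins and 10870 to 33810 CPM in early AVFs (6 of 7 called higher), the 5 neutrophil genes to at most 107.5 CPM and to 211 to 4299 CPM (5 of 5 higher), and the 6 genes of resting fibroblasts to 1658 to 4408 CPM and 122 to 665 CPM (6 of 6 lower). The part of these and of the fibroblast sum in the fall of *Sfrp2* was not tested.

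*Sfrp1*, on chromosome 8 at 23411502 to 23449632, and *Sfrp4*, on chromosome 13 at 19623104 to 19632994 (plus strands), did not pass the test against contralateral veins. *Sfrp4* was at 232 to 1169 CPM in contralateral veins (median 664) and 11.9 to 629 CPM in early AVFs (median 259). It was at 687, 810, 1175, 1148, and 1043 CPM in mid AVFs and 1218, 1521, 893, 965, and 821 CPM in late AVFs, so that every mid and late AVF was above every early AVF. Its log2 fold change in early AVFs was −1.22 (SE 0.48, edgeR adjusted *p* = 0.069). *Sfrp1* varied more in early AVFs, from 3.75 to 331 CPM, an 88.3-fold range over 8 libraries, than in mid AVFs (161 to 258 CPM) or late AVFs (122 to 234 CPM), and contralateral veins held 27.5 to 211 CPM. The low early values, 18.6, 3.75, and 16.2 CPM, were those of libraries 5, 6, and 7, the 3 early libraries with *Xist* and without Y chromosome genes, and the other 5 lay between 75.3 and 331 CPM. Libraries 5 and 6 were also the deepest, at 67457501 and 53097813 counts, and library 7 held 24970280. The study gives a spread of harvest days for early AVFs. The part of sex, depth, or day was not tested. The early log2 fold change of *Sfrp1*, 0.18 (SE 0.56), became −0.13 without the 8 libraries that went against their sex label.

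The Dickkopf genes divided by role. *Dkk2*, on chromosome 3 at 132085292 to 132180304 (plus strand), encodes a ligand of Lrp5 and Lrp6, and *Dkk3*, on chromosome 7 at 112116017 to 112159057 (minus strand), a divergent member that does not act through them in the same way. *Dkk2* spread from 0 to 55.9 CPM in contralateral veins (median 1.84) and from 0.135 to 50.4 CPM in early AVFs (median 18.8), against 34.5 to 61.6 CPM in mid and 36.2 to 60.9 CPM in late AVFs. In early libraries 5, 6, and 7 *Dkk2* too was low, at 1.38, 0.135, and 2.86 CPM, with 17.4 to 50.4 CPM in the other 5. *Dkk3* ranged from 9.02 through 167 to 361 CPM in contralateral veins and from 49.9 through 132 to 218 CPM in early AVFs, reached 217.5 to 423.5 CPM in mid AVFs, and was at 319, 366, and 462 CPM as lowest, median, and highest of the late AVFs. The log2 fold changes in late AVFs, 1.90 (SE 1.08) for *Dkk2* and 1.15 (SE 0.46) for *Dkk3*, did not pass the test (edgeR adjusted *p* = 0.286 and 0.11). The late values of *Dkk3* lay above all 8 early ones.

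*Wnt5a*, the only ligand among the 10, signals mainly outside the β-catenin branch, and lies on chromosome 14 at 28504750 to 28527448 (plus strand). It ranged from 0.417 through 23.8 to 91.1 CPM in contralateral veins and from 8.17 through 15.6 to 26.0 CPM in early AVFs. Mid AVFs held 21.3 to 59.5 CPM and late AVFs 40.6 to 79.0 CPM, and all late AVFs were above all early AVFs. Contralateral veins covered the range of all AVFs, and no contrast with them passed (log2 fold changes −1.05, 0.09, and 0.78).

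*Rspo3*, the R-spondin of the list, known from endothelial and mesenchymal cells, lies on chromosome 10 at 29452416 to 29535867 (minus strand). It was at 0 in 2 contralateral veins and at 52.7 CPM in the highest, with a median of 0.973 CPM. AVFs were less spread, at 1.56 to 18.8 CPM in early, 2.20 to 5.39 CPM in mid, and 3.52 to 8.25 CPM in late AVFs. With SEs of 1.04 to 1.25, its log2 fold changes of −1.02, −1.95, and −1.61 were not called.

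*Wisp1*, a matricellular gene known as a target of β-catenin, lies on chromosome 15 at 66891320 to 66923201 (plus strand). Contralateral veins ranged from 0.0899 through 31.7 to 68.1 CPM, early AVFs from 51.2 through 126 to 205 CPM, mid AVFs from 136 to 179 CPM, and late AVFs from 113 to 171 CPM. All mid and late AVFs were above all contralateral veins, and 3 of the 10 genes (*Frzb*, *Wif1*, and *Wisp1*) had such a gap at those times, against 7.32% and 6.25% of all genes. In early AVFs 2 of the 10 did, against 4.46%. The log2 fold changes of *Wisp1*, 1.79, 2.20, and 2.03 (SE 0.68, 0.74, and 0.74), missed the threshold with edgeR adjusted *p* of 0.0587, 0.051, and 0.0742.

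**Figure D2:**
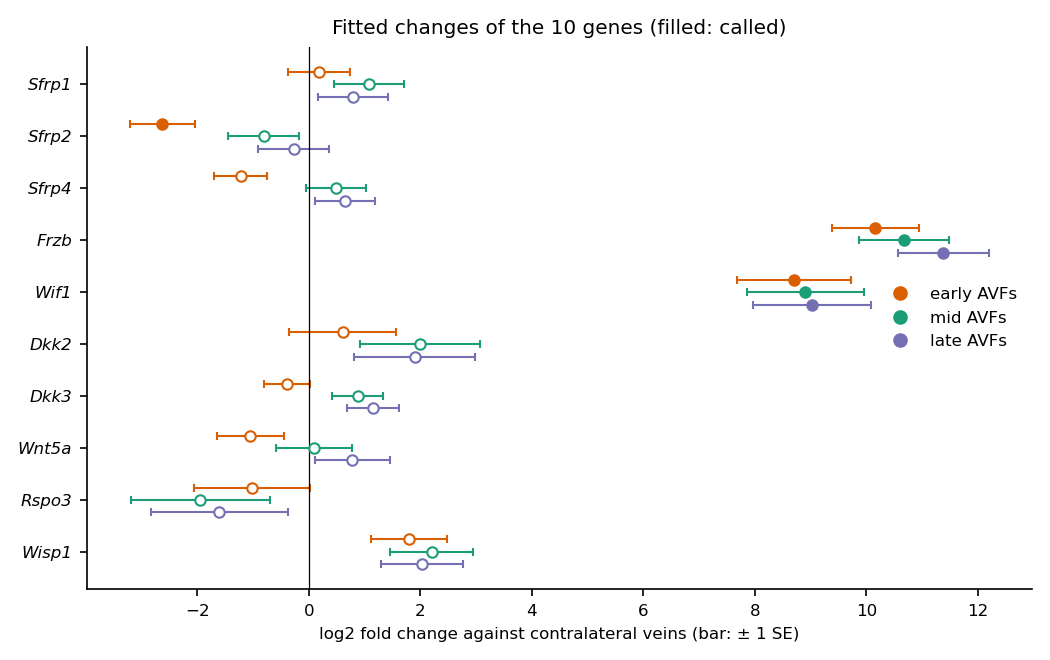
Log2 fold change of each gene against contralateral veins in early, mid, and late AVFs, with a bar of 1 SE to either side, from edgeR. Filled circles are called genes: *Frzb* and *Wif1* at all 3 times, between 8.70 and 11.38, and *Sfrp2* at −2.63 in early AVFs.

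Between time points none of the 10 genes was called by edgeR, where 0.00789% of all genes were called higher in mid than in early AVFs and 0.726% in late than in early AVFs. At an unadjusted *p* under 0.05, 3 were higher in mid than in early AVFs and 5 in late than in early AVFs, and DESeq2 called 0 and 3. The 3 that DESeq2 called, *Sfrp2*, *Sfrp4*, and *Dkk3*, had log2 fold changes from early to late of 2.35, 1.87, and 1.55 (SE 0.61, 0.52, and 0.45) and edgeR adjusted *p* of 0.0163, 0.0258, and 0.0319. Without early library 10, *Sfrp2* was called (2.62, edgeR adjusted *p* = 0.0091), and without contralateral library 28, *Dkk3* was (1.55, edgeR adjusted *p* = 0.00324). With *Wnt5a* (1.83, SE 0.65, edgeR adjusted *p* = 0.102) they were the 4 of 10 genes whose late AVFs were all above all early AVFs, against 7.09% of all genes. From early to mid AVFs, *Sfrp4* alone among the 10 had that gap, against 3.3% of all genes. Between mid and late AVFs, 0 of the 10 had an unadjusted *p* under 0.05 by edgeR and DESeq2 called 0. By edgeR's test of an interaction of AVF creation with labelled sex, none of the 10 was called (lowest adjusted *p* 0.117, for *Rspo3*), against 127 of 12673 genes. *Rspo3* and *Sfrp2* had an unadjusted *p* under 0.05, 0.00242 and 0.00368, with log2 interactions of 7.78 and −2.74. Only 2 contralateral veins were labelled male, so a lack of calls does not show that the sexes were alike. On the 17 libraries that matched their label, 0 genes were called by that test.

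The receptors, other ligands, other modulators, and intracellular genes of the pathway were taken as lists of 82 genes, of which 52 were tested. In early AVFs 4 were called higher and 8 lower, in mid AVFs 3 and 2, and in late AVFs 2 and 3. The shares over all genes are those given above, and the median log2 fold change of the 52 was −0.31, 0.19, and 0.22. Of 7 other secreted modulators tested, *Cthrc1*, a secreted cofactor of noncanonical Wnt signaling, rose from 24.4 ± 26.0 CPM (SD, n = 7) to 588 ± 386 CPM (n = 8) in early AVFs and 544 ± 104 CPM (n = 5) in mid AVFs (log2 fold changes 4.59 and 4.48, edgeR adjusted *p* = 0.000211 and 0.000813), with 225 ± 56.7 CPM (n = 5) in late AVFs and no call. *Rspo1*, another R-spondin, fell from 34.4 ± 27.1 CPM (n = 7) to 0.821 ± 0.696 CPM (n = 8) in early AVFs (−5.38, SE 1.08, edgeR adjusted *p* = 0.000614).

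Among 20 receptors and coreceptors tested, *Lgr5*, a receptor of R-spondins, rose from at most 0.313 CPM in contralateral veins to 24.2 ± 7.63 CPM (n = 5) in mid AVFs, with log2 fold changes of 7.22, 8.34, and 7.60 that were called at the 3 times. The Frizzled genes *Fzd4*, *Fzd6*, and *Fzd8* fell in early AVFs (−2.37, −2.06, and −2.99), and *Ryk*, an atypical Wnt receptor, fell in late AVFs (−1.97). Of 5 ligands tested, *Wnt9b* was called higher at the 3 times (5.80, 7.39, and 6.51). Of 13 targets and feedback genes of canonical signaling, 8 were tested, with 1 called higher at each time, *Lgr5*, and 4, 2, and 2 lower. Their median log2 fold change was −0.75, 0.09, and 0.66, and *Ccnd1*, a cyclin, had 3.05, 2.93, and 3.15 with no call. Those that fell were *Apcdd1* (−3.19, −2.72, and −2.89) and *Znrf3* (−2.21, −2.71, and −2.61) at the 3 times, *Nkd1* (−3.53) and *Nkd2* (−1.96) in early AVFs. *Pygo2*, a nuclear cofactor of β-catenin, rose in early AVFs (1.69). *Ctnnb1*, β-catenin itself, had −0.90, −0.40, and −0.26, *Wls*, which carries Wnt proteins to the surface, −0.50, 0.23, and 0.19, and *Lrp6* −0.31, 0.10, and 0.01, none of them called. *Axin2* and *Lef1*, feedback gene and target, and *Lrp5* were too low to be tested, at group means of 2.32 to 4.71, 0.771 to 3.69, and 0.959 to 2.48 CPM. Without the 8 libraries that go against their sex label, the early calls of *Cthrc1*, *Lgr5*, *Apcdd1*, *Fzd4*, and *Nkd1* and the mid call of *Lgr5* held, and the other calls of these genes were lost, with directions as before. The lost calls include *Wnt9b* (5.33, 7.27, and 6.50, edgeR adjusted *p* = 0.0132, 0.0112, and 0.0976), *Znrf3* at the 3 times, *Apcdd1* in mid and late AVFs, and *Lgr5* and *Ryk* in late AVFs.

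**Figure D3:**
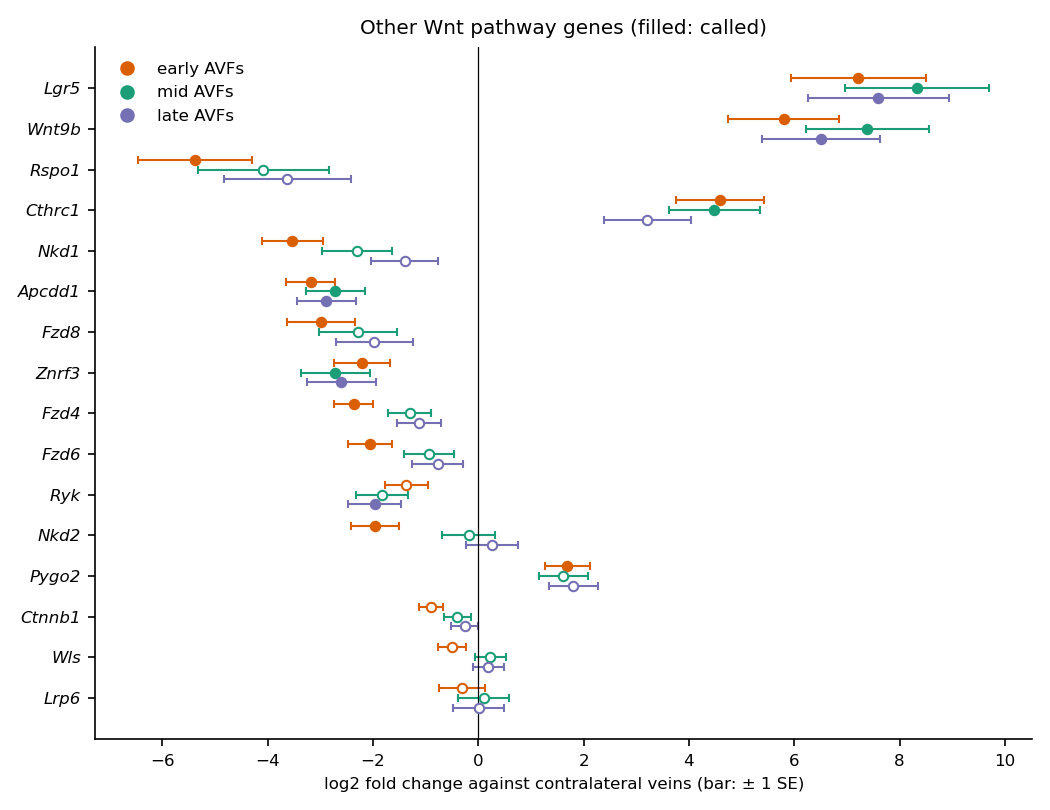
Log2 fold change against contralateral veins of the 13 other Wnt pathway genes called at 1 or more times and of *Ctnnb1*, *Wls*, and *Lrp6*, with a bar of 1 SE to either side. Filled circles are called by edgeR. *Lgr5* and *Wnt9b* lie far to the right at the 3 times, and *Apcdd1* and *Znrf3* to the left.

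In the single-cell libraries, 6319 contralateral, 4753 early, and 5821 late cells were kept, with median UMI counts of 2751, 8951, and 15425 per cell. Of the barcodes kept, 5 or 6 were shared by each pair of libraries. Cells were clustered without the 10 genes, and clusters were named by marker genes. Because each condition had 1 library, values are sums over cells with exact Poisson intervals for counting error only, and no test was made. The libraries differ in depth and in free RNA: *Sfrp2* was at 83.9, 22.9, and 36.9 CPM in contralateral, early, and late mono/macro-like cells, which should lack it, with a UMI in 30.8, 27.7, and 41.9% of them at median depths of 3065, 13289, and 13853 UMIs, so levels near these were read as background.

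Fibroblast-like cells held 82 to 98% of the UMIs of *Sfrp1*, *Sfrp2*, *Sfrp4*, *Dkk2*, *Wnt5a*, and *Wisp1* in each library. In the AVF libraries *Frzb* and *Wif1* belonged to the smooth muscle-like cells, which held 83.5 and 85.6% of *Frzb* UMIs and 90.1 and 93.4% of *Wif1* UMIs in early and late AVFs. *Dkk3* and *Rspo3* were shared: smooth muscle-like cells held 45.9 and 34.9% of *Dkk3* UMIs and 38.2 and 57.4% of *Rspo3* UMIs, most of the rest being in fibroblast-like cells.

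**Figure D4:**
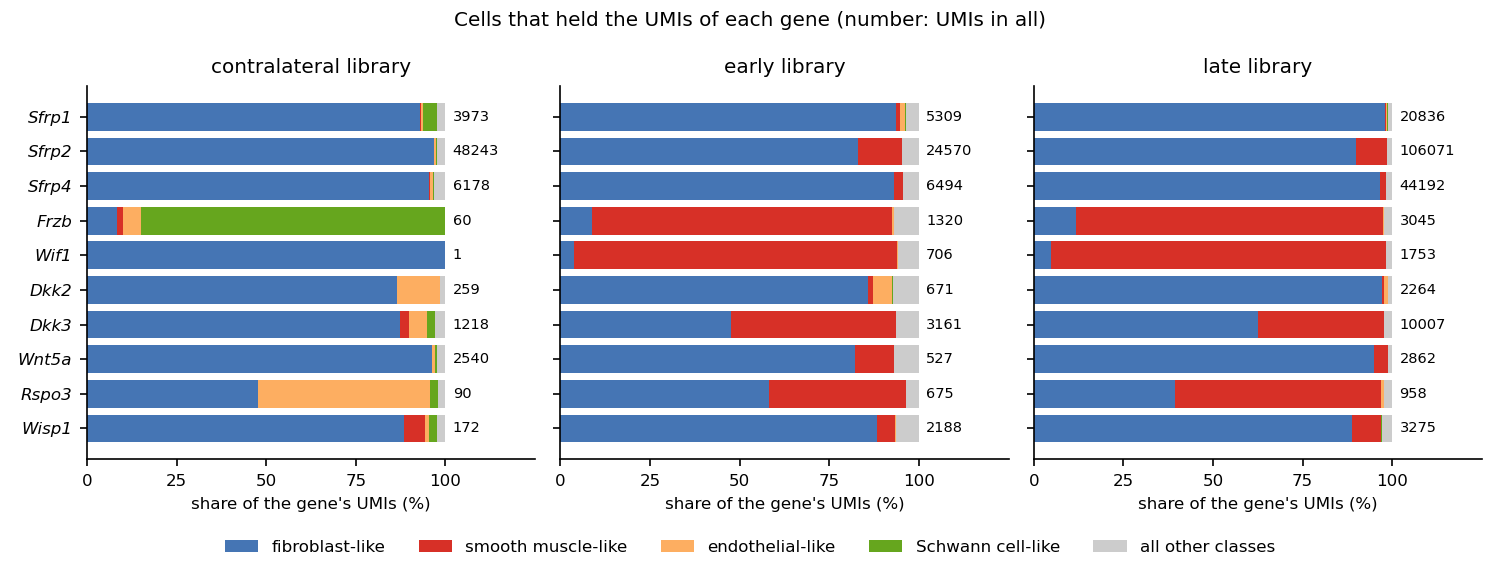
Share of each gene's UMIs held by fibroblast-like, smooth muscle-like, endothelial-like, Schwann cell-like, and all other cells in each single-cell library, with the number of UMIs at the right. *Frzb* and *Wif1* lie mostly in smooth muscle-like cells in both AVF libraries, and contralateral *Frzb* rests on 60 and *Wif1* on 1 UMI.

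The smooth muscle-like cluster was led by *Acta2*, *Tagln*, *Mgp*, and *Myh11* and held 52 contralateral, 286 early, and 585 late cells, in whose sums all 6 smooth muscle markers were present, at 26300, 17680, and 23050 CPM. *Frzb* was at 211 CPM (95% interval, 199 to 224) in its early cells and 203 CPM (195 to 211) in its late cells, against 2.72 CPM, 1 UMI, in its contralateral cells. *Wif1* was at 122 CPM and 128 CPM in early and late cells and had 0 UMIs in 52 contralateral cells, so it was at least 14.9-fold and 15.6-fold higher, taking 3 counts over the class as the floor. In contralateral cells, 0 of 52 with a *Wif1* UMI allows a share of up to 5.77% of cells with a UMI at that depth, which does not limit the share expressing the gene. After thinning to 1000 UMIs a cell, 0 of 49 contralateral, 11.4% of 273 early, and 9.32% of 547 late cells had one (48.6 and 51.3% before thinning). For *Frzb*, thinned shares were 12.5 and 15.2% (60.1 and 68.6% before) against 0.205 and 0.326% in mono/macro-like cells (2.15 and 2.41% before). *Frzb* and *Wif1* were thus far above their background in these cells, in both AVF libraries. In bulk tissue the smooth muscle markers were lower in AVFs than in contralateral veins. In single cells the smooth muscle-like share went the other way, at 0.823% of contralateral, 6.02% of early, and 10.05% of late cells. The part of cell number in the levels of *Frzb* and *Wif1* was not tested.

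Other genes of the list in smooth muscle-like cells also had higher sums in the AVF libraries. *Dkk3* was at 87.1 CPM in contralateral, 278 CPM in early, and 272 CPM in late cells. *Rspo3* had 0 UMIs in the 52 contralateral cells and 49.4 and 42.8 CPM in early and late cells, at least 6.06-fold and 5.25-fold higher. *Sfrp2* was at 131, 580, and 705 CPM, beside 83.9 CPM in the mono/macro-like cells of the contralateral library. *Wisp1*, at 27.2, 21.5, and 21.0 CPM, had overlapping intervals. Pericyte markers summed to 3995 CPM in the contralateral cells of this class and 672 and 1027 CPM in the early and late ones, cartilage markers to 21.8, 69.4, and 443 CPM, and erythroid markers to 19100, 1256, and 2.02 CPM, and their part in these differences was not tested.

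**Figure D5:**
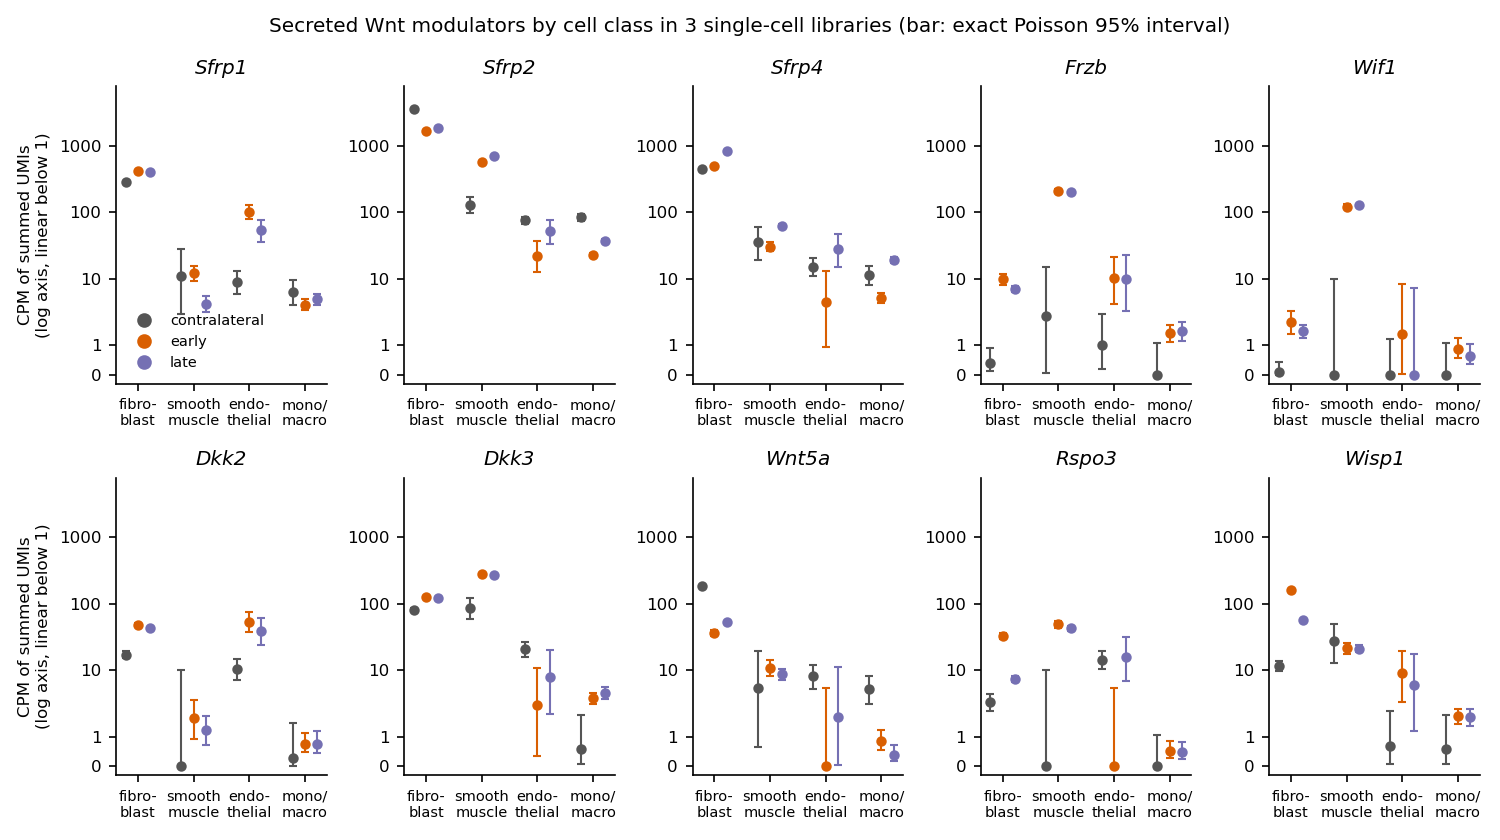
CPM of summed UMIs of each gene in fibroblast-like, smooth muscle-like, endothelial-like, and mono/macro-like cells of the contralateral, early, and late single-cell libraries, on an axis that is logarithmic above 1 and linear below it, with exact Poisson 95% intervals. *Frzb* and *Wif1* reach 100 CPM and more only in smooth muscle-like cells of the AVF libraries among the classes drawn.

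Within the smooth muscle-like class, cells with and without a *Frzb* UMI were set side by side, a division chosen after the values were seen and one that follows depth, since the median UMI count was 24465 against 4113 in early and 26446 against 6387 in late cells. *Wif1* was at 135 against 70.2 CPM in early and 139 against 74.8 CPM in late cells, and *Sfrp2* at 676 against 215 CPM and 787 against 313 CPM. *Myh11*, the smooth muscle myosin, was at 1716 against 1871 CPM and 2296 against 2905 CPM, so cells with *Frzb* held this contractile marker too. Of the same list, *Cnn1* was at 629 against 553 CPM and 718 against 803 CPM. *Des* was lower beside *Frzb*, at 38.4 against 125.6 CPM and 20.8 against 62.7 CPM. *Notch3*, a receptor of mural cells, was lower beside *Frzb*, at 13.3 against 82.2 CPM and 15.7 against 71.6 CPM. Of the other pericyte markers, *Rgs5* was lower at both times, and *Cspg4*, *Kcnj8*, and *Pdgfrb* had overlapping intervals. *Lum*, a matrix proteoglycan of fibroblasts, was higher, at 949 against 302 CPM and 1206 against 296 CPM. *Dcn*, of the same fibroblast list, was lower in early cells (350.8 against 602.2 CPM) and higher in late cells (902 against 650.2 CPM). *Col1a1* was likewise lower in early cells (2582 against 2759 CPM) and higher in late cells (2969 against 1286 CPM). *Col1a2* was higher at both times. In late cells, *Col2a1*, the collagen of cartilage, was at 316 CPM beside *Frzb* and 1.34 CPM without it, and in early cells at 3.87 against 28.6 CPM.

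In the contralateral single-cell library, *Frzb* lay mostly in Schwann cell-like cells, which held 51 of its 60 UMIs, 85.0%, at 37.2 CPM over 399 cells. These cells were 6.31% of the contralateral library and 0.231 and 0.412% of the early and late libraries (11 and 24 cells). *Sfrp1* was in them too, at 110 CPM in the contralateral and 349 CPM in the late library. Bulk contralateral veins held at most 0.087 CPM of *Frzb*, although their 6 Schwann cell genes summed to 28.7 to 433 CPM. In endothelial-like cells (813, 64, and 71 cells), *Sfrp1* was at 9.07, 101, and 53.6 CPM, *Dkk2* at 10.4, 53.6, and 39.7 CPM, and *Rspo3* at 14.4, 0, and 15.9 CPM in contralateral, early, and late libraries, on at most 68 UMIs each. Endothelial-like cells held 47.8% of the 90 contralateral *Rspo3* UMIs.

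In fibroblast-like cells (1860, 480, and 2000 cells), *Sfrp2* had the highest level of the 10 in each library, at 3589 CPM in contralateral, 1707 CPM in early, and 1886 CPM in late cells. *Wnt5a* was 5.18-fold lower in early and 3.50-fold lower in late than in contralateral cells, at 188, 36.3, and 53.7 CPM. *Wisp1* was 13.8-fold and 4.91-fold higher, at 11.7, 162, and 57.4 CPM, and *Rspo3* 9.96-fold and 2.26-fold higher, at 3.31, 32.9, and 7.48 CPM. *Dkk2* was at 17.2, 48.2, and 43.5 CPM, *Dkk3* at 81.7, 126, and 124 CPM, *Sfrp4* at 454, 506, and 843 CPM, and *Sfrp1* at 284, 416, and 404 CPM. *Frzb* (0.385, 9.89, and 7.08 CPM) was 25.7-fold and 18.4-fold higher in early and late cells. *Wif1* was at 0.0769, 2.26, and 1.62 CPM, with 1 UMI in the whole contralateral library. Both stayed far below their levels in smooth muscle-like cells of the AVF libraries. Cluster 2 held 1679 of the 1860 contralateral cells of this class, and clusters 1 and 10 held most of the AVF cells, so the compared cells differed in cluster as well as in condition.

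Fibroblast-like cells clustered again gave groups that differed in these genes within a library. Of the contralateral cells, an adventitial-like sub-cluster of 138 cells, named by *Pi16*, *Dpp4*, and the like, held *Dkk2* at 77.1 CPM (63.2 to 93.1) and *Rspo3* at 15.7 CPM, with no *Wisp1* UMI and *Dkk3* at 18.6 CPM. The 3 resting-like sub-clusters of 587, 573, and 486 cells, named by *Inmt*, *C7*, and the like, held *Dkk2* at 1.39, 3.53, and 15.8 CPM, *Dkk3* at 50.5, 79.4, and 126 CPM, and *Sfrp2* at 6831, 5007, and 1732 CPM. *Wnt5a* was highest in the last of these, at 288 CPM, against 118 and 142 CPM in the other 2 and 105 CPM in adventitial-like cells.

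In the late library, an adventitial-like sub-cluster of 651 cells, led by the acute-phase genes *Saa3* and *Hp*, was low in *Wnt5a* (16.2 CPM) and *Dkk3* (50.5 CPM), against 89.9 and 175.5 CPM in a sub-cluster of 996 cells led by *Saa3*, *Hp*, and *Comp*. A sub-cluster of 227 late cells, with *Thbs4* and *Col2a1* among its leading genes, had the highest late values of *Sfrp1* (569 CPM), *Sfrp4* (1061 CPM), *Dkk2* (82.1 CPM), and *Wisp1* (148 CPM) among the sub-clusters of 50 or more fibroblast-like cells. The same sub-cluster held 306 of the 480 early fibroblast-like cells, at 188 CPM of *Wisp1* and 37.3 CPM of *Rspo3*. *Frzb* was at 21.1 CPM in those 227 late cells and 3.48 CPM in those 306 early cells. In 55 early cells of the sub-cluster with *Comp* it was at 46.1 CPM, with a UMI in 9 of them. The marker rule named both of these AVF sub-clusters late tendon-like. Sub-clusters rest on 1 library per condition and were made without the 10 genes.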

How the data were processed

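Bulk libraries were made from poly(A) RNA of single vessels. The authors deposited raw read counts per gene, listed by Ensembl identifier, and UMI counts per gene and barcode for 3 single-cell libraries (Cell Ranger 6.0.2 per the file headers). The submitters' processing notes name STAR, Cell Ranger, and builds mm10 and GRCm38, with no roles, and the tool that counted bulk reads is not given in the sources used here. Symbols came from the single-cell gene lists (32210 identifiers) or GENCODE (19962), and 4808 had none. The 10 genes and all lists were chosen with earlier results of these data known. Counts averaging 100 or more per library, after DESeq2's normalization, were required of a gene, and these genes were tested with edgeR 4.0.16 (R 4.3.3), TMM scaling, and a mean per group over all 25 libraries (common dispersion 0.710). DESeq2 1.42.0 was an alternative. Libraries of a group are separate vessels, and *p* values measure the spread between them.

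Cells were retained if 200 to 6000 genes were detected and no more than 10% of UMIs were mitochondrial. Their counts were clustered with igraph 0.11.9 and leidenalg 0.10.2 (2000 variable genes, 12 components, 20 neighbors, leiden resolution 0.5). Clusters were named by marker lists, under a rule tightened after the clusters were seen. Scrublet, run in scanpy 1.11.5, marked 0, 2, and 120 cells and did not work in the contralateral and early libraries, so doublets were kept. Intervals cover counting error only, since PCR copies are not independent molecules. Of the other Wnt genes, those called at 1 or more times and 7 fixed genes were named. Subsets of smooth muscle-like cells, the marker genes given in them, and the 4 promoter motifs were chosen after values were seen. Protein sequences were not analysed here.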

Additional observations from a re-analysis of the deposited data

Results flagged for a closer look

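In 40 groups of values, 10 genes in 4 groups of bulk libraries, 4 groups held 1 library far from the others by Dixon's test at 95%. Its chance rate of about 1 in 20 groups holds for normally distributed values, and these CPM values were not shown to be so. Among early AVFs, library 7 had the highest *Frzb*, 76.2 CPM against 40.3 CPM in the next. Library 5, whose *Xist* and Y chromosome levels go against its sex label, had 35.6 CPM of *Wif1* against 14.8 CPM in the next. Among contralateral veins, library 27 held 0.157 CPM of *Wif1*, on 4 counts, and the others were at 0, where any count at all would be flagged. Library 31 held 55.9 CPM of *Dkk2* against 13.5 CPM in the next. Leaving out any of these libraries changed no call of the 10 genes against contralateral veins.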

How the results depend on the processing

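Of the 60 log2 fold changes of the 10 genes, 60 kept their direction and call with DESeq2's size factors in edgeR, with filterByExpr, with no filter, and with a sex term. With DESeq2 and with an adjusted *p* under 0.05, 57 did, and the number called higher in late than in early AVFs went from 0 to 3 in each. In the libraries labelled female, which include 1 early, 1 mid, and 2 late libraries that go against that label, 57 did: the early fall of *Sfrp2* lost its call (0 called lower), and its change became 0.74 in mid and 1.16 in late AVFs. Without the 8 libraries that go against their sex label, chosen after seeing the data and leaving 1 late library, 56 did, with 0 called lower in early AVFs, *Sfrp1* early at −0.13, and from mid to late *Dkk2* at 0.0131 and *Rspo3* at −0.26. With a sex term as well, 51 did: 1 was called higher in late AVFs, *Sfrp1* (−1.12), *Dkk2* (−0.24), and *Rspo3* (0.38) turned in early AVFs and *Sfrp2* (0.52) in late AVFs, and from mid to late *Frzb* was −0.13, *Wif1* −0.27, *Dkk2* 0.18, and *Rspo3* −1.48. The cause was not tested.

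Leaving out 1 library at a time, 1487 of 1500 values kept direction and call. The number called higher in late than in early AVFs ranged from 0 to 1. The changes that turned in some fits ranged from −0.35 to 0.50 for *Sfrp1* in early AVFs, −0.24 to 0.57 for *Wnt5a* in mid AVFs, −0.53 to 0.27 for *Sfrp2* in late AVFs, and from mid to late −0.0099 to 0.35 for *Wif1* and −0.23 to 0.0202 for *Dkk2*.

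The other Wnt genes called higher in early AVFs (4) numbered 7 with DESeq2, 8 with filterByExpr, 7 with no filter, 1 in libraries labelled female, 2 without the 8 libraries, and 0 with a sex term as well. Those lower (8) numbered 1 in libraries labelled female, 3 without the 8 libraries, and 2 with a sex term as well. In mid AVFs those higher (3) numbered 5 with DESeq2 and at 0.05, 7 with filterByExpr and no filter, 1 in libraries labelled female and without the 8 libraries, and 0 with a sex term as well, and 3 to 6 leaving out 1 library. Those lower (2) numbered 6 with DESeq2, 7 at 0.05, 0 in libraries labelled female, without the 8 libraries, and with a sex term as well, and 1 to 4 leaving out 1 library. In late AVFs those higher (2) numbered 4 with DESeq2, 9 with filterByExpr, 7 with no filter, 5 at 0.05, 1 in libraries labelled female, 0 without the 8 libraries and 0 with a sex term as well, and 2 to 5 leaving out 1 library. Those lower (3) numbered 1 with a sex term, 0 in libraries labelled female, without the 8 libraries, and with a sex term as well, and 1 to 3 leaving out 1 library.

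Of 33 single-cell values, 19 moved with another cell filter, 8 with resolution 1.0, 20 as a mean over cells, 2 without Scrublet doublets, and 0 with resolution 0.3. Contralateral smooth muscle-like values rest on 52 cells. No paired analysis was possible because the groups share no replicate numbers.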

Other observations

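Some values of the bulk and single-cell data, made from different vessels harvested at other times, go different ways. *Frzb* was at 2.05 CPM over all contralateral cells and at most 0.087 CPM in contralateral bulk veins. *Rspo3* was 3.08 CPM over all contralateral cells and 12.1 and 9.73 CPM over early and late cells, while its bulk means were 15.7 ± 23.0 CPM (SD, n = 7), 7.75 ± 6.32 CPM (n = 8), and 5.14 ± 1.84 CPM (n = 5). Its bulk medians, 0.973, 5.21, and 4.65 CPM, went the same way as the single cells, so for *Rspo3* only the means differ in direction. *Wnt5a* was 86.9 CPM over all contralateral cells and 29.1 CPM over late cells, and 33.6 ± 34.2 CPM (SD, n = 7) and 57.5 ± 15.8 CPM (n = 5) in bulk. *Wnt9b*, called higher in bulk AVFs, had 51 UMIs in contralateral endothelial-like cells (17.1 CPM) and 8 and 2 UMIs in early and late ones.

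Among the other Wnt genes, 2 were called higher in late than in early AVFs. *Fzd1*, a Frizzled receptor, rose from 42.4 ± 18.2 CPM (SD, n = 8) to 130 ± 28.5 CPM (n = 5), a log2 fold change of 1.62 (SE 0.33, edgeR adjusted *p* = 0.00385). *Nkd2* rose from 9.72 ± 5.22 CPM (n = 8) to 45.2 ± 4.07 CPM (n = 5), a log2 fold change of 2.22 (SE 0.48, edgeR adjusted *p* = 0.00524).

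In single cells, *Cthrc1* was at 15.2, 1026, and 129 CPM in contralateral, early, and late fibroblast-like cells, and *Lgr5* at 0.231, 21.9, and 7.97 CPM. *Nkd1* was at 136, 43.7, and 46.2 CPM in smooth muscle-like cells and *Axin2* at 15.2, 5.20, and 8.05 CPM in fibroblast-like cells.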
